A study of Mus musculus with 14 samples.

Results

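The genes described here encode 10 structural components of the basement membrane. They are the collagen IV chains Col4a1 and Col4a2, the collagens Col15a1 and Col18a1, the laminin chains Lama2, Lama4, Lamb1 and Lamc1, the nidogen Nid1 and the perlecan core protein Hspg2. They were selected by name, as the rows of the count table that carry these symbols. Each symbol stands on 1 row, so that the set holds 10 of 54532 genes, and all 10 were among the 16034 genes that passed the filter on low counts. Their counts ran from 104 to 27195 reads in a library.

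RNA of the heart was sequenced from 14 mice, 1 library per mouse, to follow gene expression after irradiation. All mice were wild-type C57BL/6J males that were 8 weeks old at irradiation. In the irradiated groups, 30 Gy of cobalt-60 γ-rays at 0.97 Gy/min had been directed to the front of the chest under pentobarbital anesthesia, with lead over the rest of the body, and hearts were collected after 1 day (IRR_1d, n = 3) or 6 weeks (IRR_6w, n = 4). Control_1d (n = 3) and Control_6w (n = 4) were non-irradiated mice of the same times. The field covered the chest and not the heart alone, and each library mixes the RNA of all cell types in the tissue taken.

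A basement membrane is a thin sheet of extracellular matrix. In the heart it surrounds every cardiomyocyte and lies under the endothelium of every vessel. Laminins, each built from an α, a β and a γ chain, form a network at the cell surface and bind integrins and dystroglycan, while collagen IV forms a covalently crosslinked network that gives the sheet its tensile strength. Nidogen and perlecan connect both networks, and collagens XV and XVIII sit at the border to the interstitial matrix. The C-terminal fragment of collagen XVIII is endostatin, known as an inhibitor of angiogenesis.

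Col4a1 (ENSMUSG00000031502, chr8:11198423-11312826, minus strand, mm10) and Col4a2 (ENSMUSG00000031503, chr8:11312805-11449287, plus strand) lie head to head, and their first exons overlap by 22 bases on opposite strands. Both chains belong to the same trimer, the α1α1α2 collagen IV found in nearly all basement membranes. The promoter windows of both genes in RefSeq (GRCm38.p6) reach from 250 bases before to 50 bases after each start site, at 11312826 for Col4a1 and at 11312805 for Col4a2. They are printed because the windows share 78 bases (chr8:11312777-11312854), which stand in capitals and appear as reverse complements of each other. Each sequence is given 5′ to 3′ on the strand of its gene.

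Col4a1: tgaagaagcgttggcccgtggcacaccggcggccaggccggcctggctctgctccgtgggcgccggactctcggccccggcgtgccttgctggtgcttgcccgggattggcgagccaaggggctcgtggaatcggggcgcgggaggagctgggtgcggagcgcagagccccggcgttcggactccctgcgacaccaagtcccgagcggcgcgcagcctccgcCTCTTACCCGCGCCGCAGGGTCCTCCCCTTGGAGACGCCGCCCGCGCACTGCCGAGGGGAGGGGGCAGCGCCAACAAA

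Col4a2: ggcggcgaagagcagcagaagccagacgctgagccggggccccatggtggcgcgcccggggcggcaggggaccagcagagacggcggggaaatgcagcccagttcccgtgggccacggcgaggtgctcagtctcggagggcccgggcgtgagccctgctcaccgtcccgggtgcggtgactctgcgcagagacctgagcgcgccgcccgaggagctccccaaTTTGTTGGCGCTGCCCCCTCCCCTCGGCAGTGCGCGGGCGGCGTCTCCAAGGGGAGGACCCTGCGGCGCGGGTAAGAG

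Motifs were looked for on both strands: the GC box GGGCGG, the CCAAT box CCAAT and the TATA box TATAAA. Of the 10 genes, 8 had an entry in the promoter table, with 9 windows in all, since Col18a1 has 2 start sites there. The entries of Lama4 and Lamc1 were not found. GGGCGG stood in 7 of the 9 windows, against 35.7% of the 32851 windows in the table, CCAAT in 5 of 9 against 37.4%, and TATAAA in 0 of 9 against 13.6%. In 7 of the 9 windows the GC content was above 52.7%, the median of all windows in the table. The stretch shared by Col4a1 and Col4a2 held 1 GGGCGG, the only one in the Col4a1 window, and 0 CCAAT. These matches describe the letters only.

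All 10 genes are annotated as protein coding, and their positions in the table are those of GENCODE vM21. Lama2 (ENSMUSG00000019899, chr10:26980036-27619758) shares 631 exonic bases, 3.86% of its length, with the antisense gene Gm48084, and Nid1 (ENSMUSG00000005397, chr13:13437551-13512269) shares 143 bases, 2.06%, with Gm48682. The shared share was below 1% for Col4a1, Col4a2 and Col15a1 and 0 for the rest. Since it is not stated whether strand was used in counting, reads in these stretches cannot be assigned.

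Counts per library ran from 13336746 to 16837265. Among genes at 2 to 5 CPM, 30.7% were at 0 counts in Control_1d replicate 1, 21.6% in IRR_6w replicate 3 and 8.62% in IRR_6w replicate 4, against at most 1.98% elsewhere. In these libraries a low count is less certain than its number of reads implies, and the lowest of the 10 genes, Col18a1, is the one nearest to that range. Heart identity was checked with cardiomyocyte and other marker lists. All 8 cardiomyocyte markers were detected in every library, with a sum from 6292 CPM in Control_6w replicate 3 to 51660 CPM in a Control_1d library.

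Some libraries stood apart by transcripts of neighbouring tissue. The 6 brown fat markers summed to 1796 CPM in IRR_6w replicate 1, 1075 CPM in Control_6w replicate 3 and 606.7 CPM in IRR_1d replicate 3, with none of the 6 at 0, and to at most 38.2 CPM in the other 11 libraries. The 10 thymus markers summed to 4328 CPM in Control_6w replicate 3 and to at most 58.4 CPM elsewhere, and the 10 lung epithelium markers to 426 CPM in IRR_6w replicate 1 and to at most 34.0 CPM elsewhere. The 5 atrial markers were highest in IRR_6w replicate 1 (2841 CPM) and IRR_1d replicate 3 (1945 CPM). The main fold changes and counts below are therefore also given without IRR_6w replicate 1, Control_6w replicate 3 and IRR_1d replicate 3, a choice made after the data had been seen, which leaves 3, 2, 3 and 3 libraries in Control_1d, IRR_1d, Control_6w and IRR_6w. Levels are TMM-scaled CPM, the share of a library's reads after scaling between libraries. The p-values set each group difference against the spread between libraries of the same group, which includes differences in the tissue taken.

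**Figure D1:**
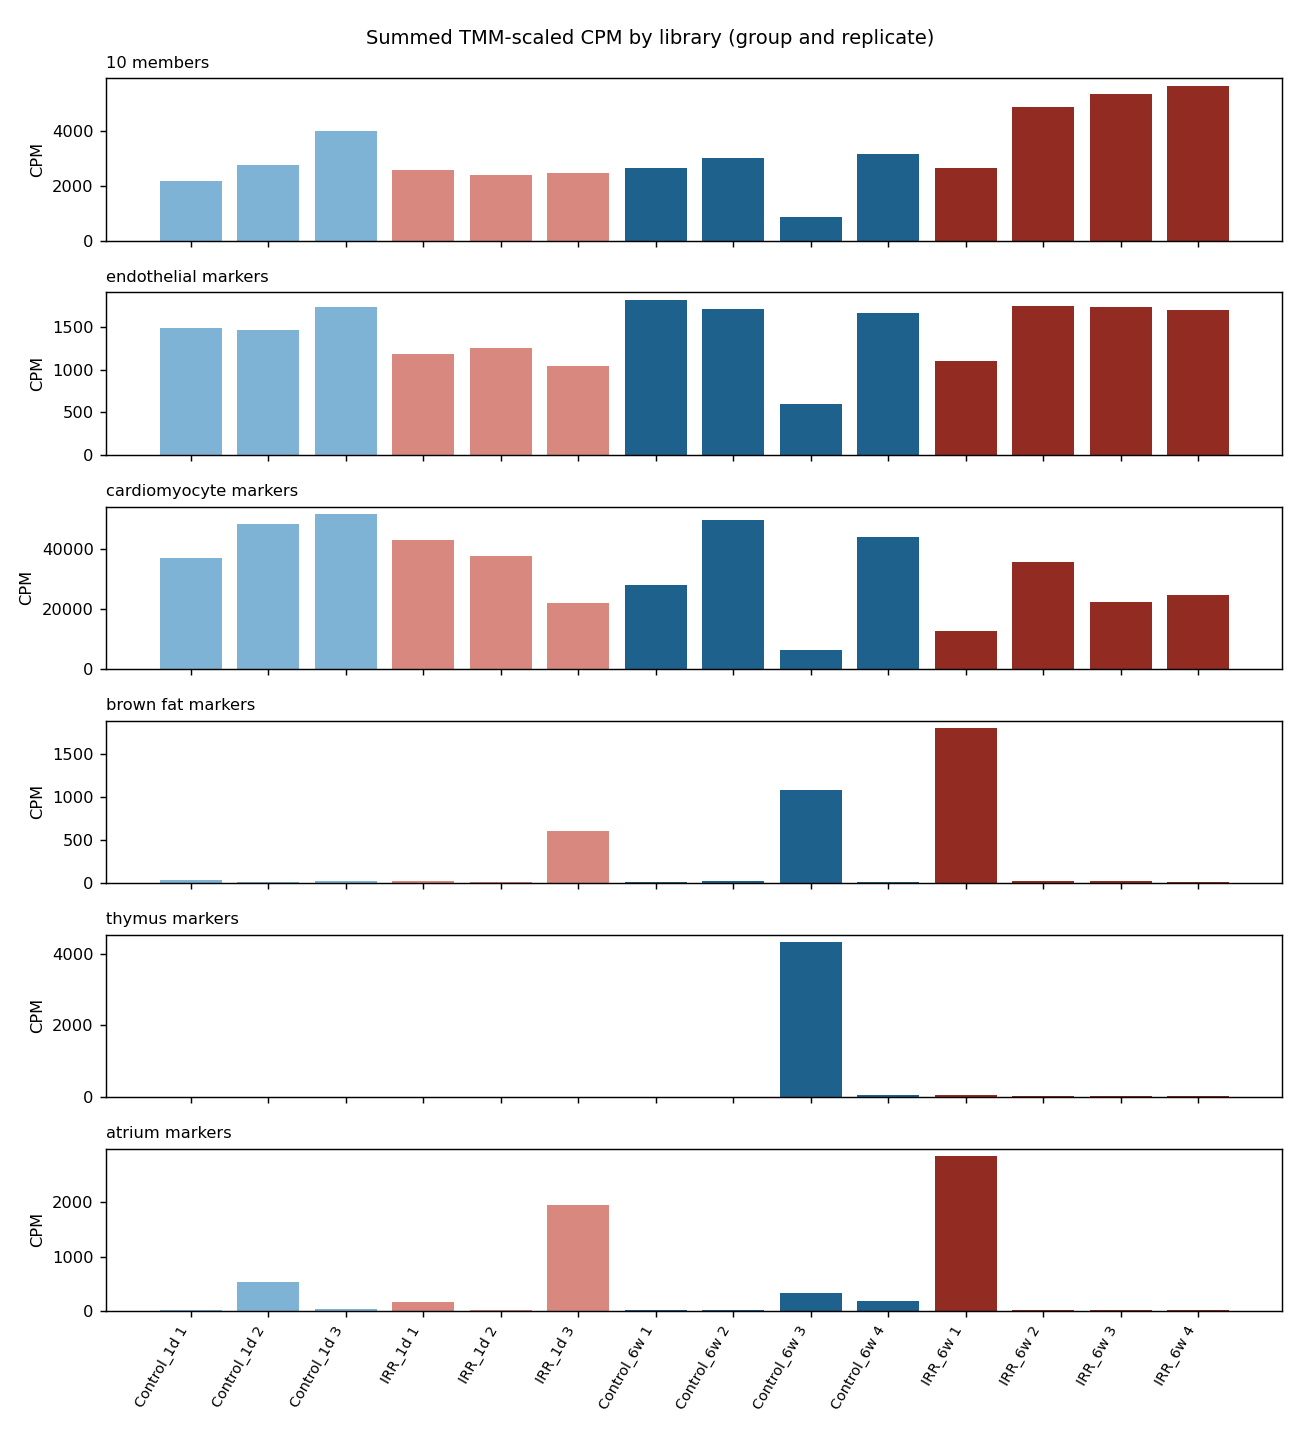
Bars give the summed TMM-scaled CPM of the 10 genes and of 5 marker lists in each of the 14 libraries (group and replicate on the x axis). Control_6w replicate 3, with 861 CPM of the 10 genes, 599 CPM of endothelial markers and 4328 CPM of thymus markers, stands below the other Control_6w libraries in the first 3 panels.

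Summed over the 10 genes, the level was 2982 ± 944 CPM in Control_1d (SD, n = 3), 2490 ± 92.4 CPM in IRR_1d (n = 3), 2422 ± 1063 CPM in Control_6w (n = 4) and 4628 ± 1357 CPM in IRR_6w (n = 4). Divided by gene length, the order in Control_1d was Col4a1 (93.7 ± 28.7 CPM per kb), Col4a2 (58.7 ± 24.8), Hspg2 (45.1 ± 25.0), Nid1 (40.0 ± 3.13), Lamc1 (39.2 ± 8.36), Col15a1 (24.4 ± 10.4), Lamb1 (15.5 ± 5.31), Lama4 (12.8 ± 2.05), Lama2 (10.5 ± 2.34) and Col18a1 (1.78 ± 0.831; SD, n = 3). The ranges of all neighbours in this order overlapped, except that Col18a1, at 0.929 to 2.59 CPM per kb, lay below Lama2, at 7.80 to 12.3. In IRR_6w, Col18a1 (10.2 ± 2.40 CPM per kb, n = 4) stood beside Lama2 (10.2 ± 4.38), and their ranges overlapped.

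**Figure D2:**
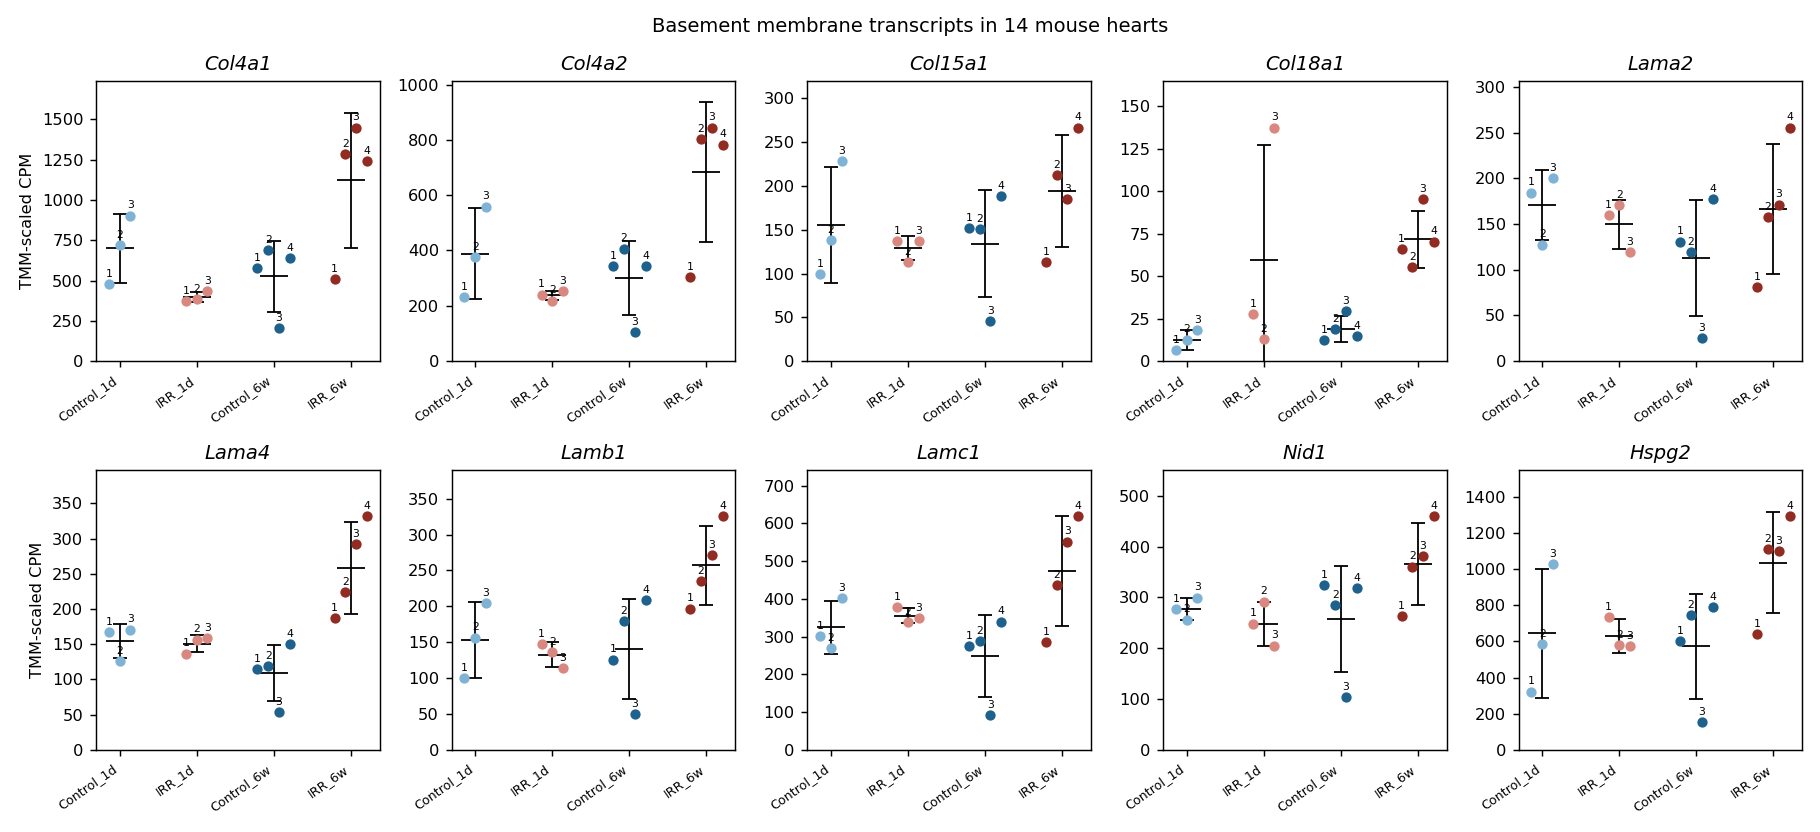
Points give the TMM-scaled CPM of each gene in each library, labelled with the replicate number, over the 4 groups. The horizontal bar and whiskers are the mean ± SD (n = 3 or 4, whiskers cut at 0), and in IRR_6w the points of Col18a1 and Lama4 all lie above those of Control_6w.

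At 6 weeks, all 10 genes had a positive log2 fold change for IRR_6w against Control_6w, between 0.51 and 1.92, and their median was 0.90 against -0.09 over all tested genes, of which 7015 of 16034 were positive. None of the 10 was called by edgeR's quasi-likelihood test when a fold limit of 2 (or 0.5 for lower genes) and a p below 0.05 after Benjamini-Hochberg adjustment were required, which 0.256% of all tested genes passed in either direction. At an unadjusted p under 0.05, 6 of the 10 were higher, namely Col4a1, Col4a2, Col18a1, Lama4, Lamb1 and Lamc1, against 5.43% of all tested genes that were higher. The groups did not overlap for Col18a1 and Lama4, with all IRR_6w values above all Control_6w values, as for 4.08% of all tested genes. DESeq2 on the same libraries called Col18a1 and Lama4, 2 of the 10, against 2.05% of all genes. In bulk RNA, more cells of a type and more RNA per cell cannot be told apart.

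Without the 3 libraries with brown fat transcripts, edgeR called the same 2 genes, Col18a1 and Lama4, against 1.13% of all genes tested there, and again 6 of the 10 were higher at an unadjusted p, against 6.56%. The directions of the 10 are not separate observations. Across the 14 libraries, 9 of the 10 genes correlated with the mean of all 10 standardised levels at Pearson's r from 0.822 (Lama2) to 0.961 (Hspg2), while Col18a1 had 0.371. These correlations share library depth and tissue makeup and are descriptions. The mean standardised level was -2.29 in Control_6w replicate 3, against -0.539 to 1.36 in the other libraries. Correlations without this library were not computed.

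Col4a1 was measured at 575, 688, 205 and 639 CPM in Control_6w and at 511, 1286, 1448 and 1241 CPM in IRR_6w. In IRR_6w, 3 libraries lay above every control, while replicate 1, the library with brown fat and lung transcripts, lay inside the control range. This gave a log2 fold change of 1.09 ± 0.395 (SE, unadjusted p = 0.0151, adjusted p = 0.382, edgeR), and 1.06 ± 0.244 without the 3 libraries (adjusted p = 0.0639).

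Col4a2 showed the same arrangement. Its level was 345, 407, 104 and 343 CPM in Control_6w and 305, 802, 844 and 782 CPM in IRR_6w. Replicate 1 of IRR_6w again lay among the controls and the other 3 libraries were higher than all of them. Its log2 fold change was 1.19 ± 0.421 (unadjusted p = 0.0133, adjusted p = 0.369, edgeR), and 1.15 ± 0.280 without the 3 libraries (adjusted p = 0.083).

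Col18a1 (ENSMUSG00000001435, chr10:77052178-77166548, minus strand) had the largest log2 fold change of the 10 genes at 6 weeks. Its level was 12.5, 18.9, 29.4 and 14.7 CPM in Control_6w and 65.9, 55.5, 95.3 and 70.4 CPM in IRR_6w. The lowest irradiated heart stood above the highest control heart, and that control was the thymus-bearing replicate 3. The log2 fold change was 1.92 ± 0.577 (unadjusted p = 0.00474, adjusted p = 0.222, edgeR), 1.93 ± 0.567 with DESeq2 (adjusted p = 0.0315), and 2.26 ± 0.406 in edgeR without the 3 libraries (adjusted p = 0.021). The gene has 2 start sites in RefSeq, 52825 bases apart, from which isoforms with different N termini begin. Gene counts do not separate them. Both windows are printed, with each GC box in capitals, to show how the start sites differ, since the first (chr10:77166481-77166780) holds 3 and the second (chr10:77113656-77113955) holds 0.

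Col18a1 start 1: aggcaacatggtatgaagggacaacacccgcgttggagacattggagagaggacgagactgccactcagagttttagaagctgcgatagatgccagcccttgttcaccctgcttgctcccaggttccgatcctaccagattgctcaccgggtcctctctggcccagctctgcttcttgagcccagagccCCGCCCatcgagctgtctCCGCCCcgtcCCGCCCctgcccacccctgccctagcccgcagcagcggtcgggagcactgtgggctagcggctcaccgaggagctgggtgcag

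Col18a1 start 2: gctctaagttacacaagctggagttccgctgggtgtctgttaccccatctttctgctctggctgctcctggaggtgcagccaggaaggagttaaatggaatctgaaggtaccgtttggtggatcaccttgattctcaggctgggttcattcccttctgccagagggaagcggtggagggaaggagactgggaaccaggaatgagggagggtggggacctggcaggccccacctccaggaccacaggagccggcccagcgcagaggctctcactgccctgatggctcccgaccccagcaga

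Col15a1 (ENSMUSG00000028339, chr4:47208161-47313167), the close relative of Col18a1 and a collagen of muscle and capillary basement membranes, ran from 46.0 to 189 CPM in Control_6w and from 113 to 267 CPM in IRR_6w. The ranges overlapped, and the log2 fold change was 0.53 ± 0.391 (unadjusted p = 0.194, adjusted p = 0.757, edgeR), and 0.43 ± 0.288 without the 3 libraries (adjusted p = 0.663). The ratio of Col18a1 to Col15a1 per length was 0.0715 ± 0.0119 in Control_1d (SD, n = 3), 0.397 ± 0.441 in IRR_1d (n = 3), 0.209 ± 0.247 in Control_6w (n = 4) and 0.367 ± 0.151 in IRR_6w (n = 4). The highest value of IRR_1d, 0.904, was that of replicate 3, the highest of Control_6w, 0.579, that of replicate 3, and the highest of IRR_6w, 0.525, that of replicate 1. The other Control_6w values ran from 0.0704 to 0.113 and the other IRR_6w values from 0.237 to 0.466, and this ratio was not tested.

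Lama4 (ENSMUSG00000019846, chr10:38965515-39110188), the α4 chain of the laminins under vascular endothelium and around muscle fibres, had the smallest p of the 10 genes at 6 weeks with all libraries, while Col18a1 had it without the 3. Its level was 114, 119, 53.3 and 150 CPM in Control_6w and 186, 224, 293 and 331 CPM in IRR_6w. Every irradiated heart was above every control heart. This gave a log2 fold change of 1.24 ± 0.296 (unadjusted p = 0.000833, adjusted p = 0.112, edgeR), 1.26 ± 0.294 with DESeq2 (adjusted p = 0.00212), and 1.14 ± 0.223 in edgeR without the 3 libraries (adjusted p = 0.0305).

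Lama2, the α2 chain of the laminin that links the cardiomyocyte surface to the matrix through dystroglycan and is lacking in merosin-deficient muscular dystrophy, ran from 25.3 to 177 CPM in Control_6w and from 80.9 to 255 CPM in IRR_6w. Its log2 fold change was 0.56 ± 0.458 (unadjusted p = 0.244, adjusted p = 0.782, edgeR), and 0.45 ± 0.258 without the 3 libraries (adjusted p = 0.596). The ratio of Lama4 to Lama2 per length was 1.24 ± 0.0937 in Control_1d (SD, n = 3), 1.40 ± 0.347 in IRR_1d (n = 3), 1.63 ± 0.817 in Control_6w (n = 4) and 2.28 ± 0.611 in IRR_6w (n = 4). The Control_6w value of 2.85 belonged to replicate 3, and the highest IRR_6w value of 3.12 to replicate 1, the libraries with the most brown fat transcripts. The other Control_6w values ran from 1.144 to 1.352 and the other IRR_6w values from 1.756 to 2.315. These ratios were not tested.

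Lamb1 (ENSMUSG00000002900, chr12:31265234-31329644) and Lamc1 (ENSMUSG00000026478, chr1:153218922-153332786) encode the β1 and γ1 chains, with which both α chains assemble. Lamb1 was at 126, 179, 49.9 and 209 CPM in Control_6w and at 197, 235, 272 and 325 CPM in IRR_6w, so that only replicate 1 of IRR_6w fell below the highest control. Its log2 fold change was 0.87 ± 0.368 (unadjusted p = 0.0329, adjusted p = 0.502, edgeR). Lamc1 ran from 91.7 to 340 CPM in Control_6w and from 286 to 619 CPM in IRR_6w, with a log2 fold change of 0.93 ± 0.356 (unadjusted p = 0.0206, adjusted p = 0.432, edgeR). In the fit without the 3 libraries these were 0.69 ± 0.281 for Lamb1 (adjusted p = 0.394) and 0.83 ± 0.224 for Lamc1 (adjusted p = 0.124).

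Nid1, which bridges laminin γ1 and collagen IV, had overlapping ranges of 103 to 324 CPM in Control_6w and 262 to 459 CPM in IRR_6w, and a log2 fold change of 0.51 ± 0.318 at 6 weeks (unadjusted p = 0.133, adjusted p = 0.704, edgeR). Hspg2 (ENSMUSG00000028763, chr4:137468769-137570630), whose heparan sulfate chains bind growth factors, ran from 153 to 792 CPM in Control_6w and from 640.2 to 1292 CPM in IRR_6w. Its log2 fold change was 0.85 ± 0.458 (unadjusted p = 0.0825, adjusted p = 0.636, edgeR). With the 3 libraries left out, Nid1 had 0.37 ± 0.191 (adjusted p = 0.544) and Hspg2 had 0.71 ± 0.344 (adjusted p = 0.508).

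**Figure D3:**
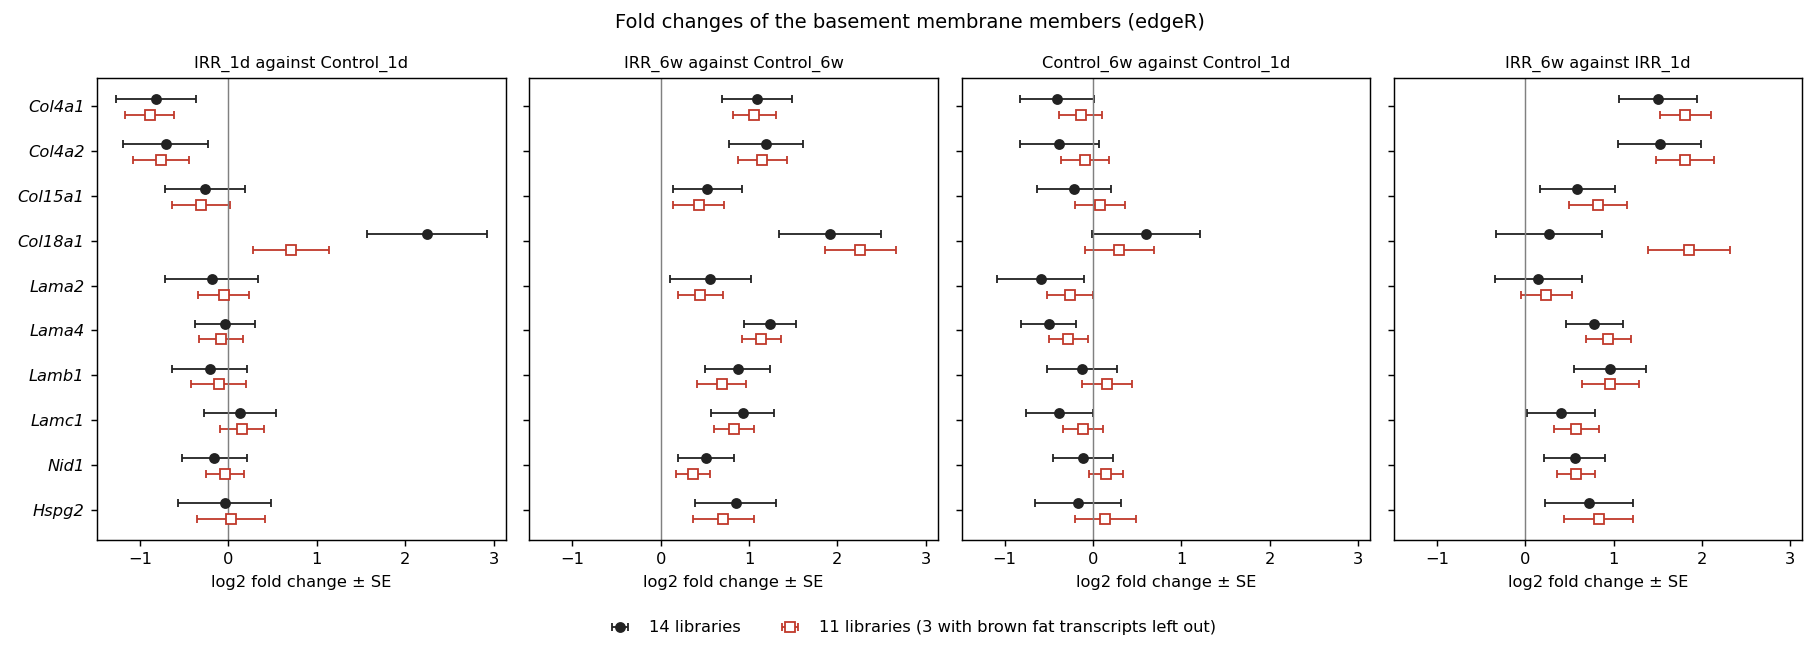
Log2 fold changes ± SE of the 10 genes from edgeR in 4 comparisons, with all 14 libraries (filled circles) and without the 3 libraries with brown fat transcripts (open squares). At 6 weeks all filled circles lie between 0.51 and 1.92, and at 1 day Col18a1 moves from 2.25 to 0.71 between the 2 fits.

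Because these genes are expressed by vessels, mural cells and fibroblasts among others, marker lists are given beside them. The 8 endothelial markers had a median log2 fold change of 0.05 at 6 weeks, with 1 higher and 1 lower at an unadjusted p, and their sum ran from 599 to 1821 CPM in Control_6w and from 1108 to 1752 CPM in IRR_6w, with none at 0. The summed level of the 10 genes divided by the endothelial sum was 1.63 ± 0.222 in Control_6w (SD, n = 4), from 1.44 to 1.89, and 2.89 ± 0.393 in IRR_6w (SD, n = 4), from 2.39 to 3.30. The groups did not overlap, and Control_6w replicate 3 and IRR_6w replicate 1 were each the lowest of their group. In Control_1d the ratio was 1.88 ± 0.428 (SD, n = 3) and in IRR_1d 2.16 ± 0.229 (SD, n = 3), and these ranges overlapped. These ratios were not tested.

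Markers of macrophages moved with the 10 genes at 6 weeks. Their sum ran from 264 to 671 CPM in Control_6w and from 1123 to 1478 CPM in IRR_6w, 7 of 8 were higher at an unadjusted p, the median log2 fold change was 1.23, and no marker was at 0. The 8 fibroblast markers had a median of 0.41, with 3 higher at an unadjusted p, and sums from 1292 to 3903 CPM in Control_6w and from 2823 to 3746 CPM in IRR_6w. The 1292 CPM belonged to Control_6w replicate 3 and the 3746 CPM to IRR_6w replicate 1. In the other libraries the fibroblast sums ran from 3155 to 3903 CPM in Control_6w and from 2823 to 2863 CPM in IRR_6w. There, every irradiated heart was below every control heart. The 8 mural cell markers had a median of -0.04, with 0 of 8 at an unadjusted p, and the 8 cardiomyocyte markers -0.47, also with 0 of 8. The part of these cell types in the values of the 10 genes was not tested.

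**Figure D4:**
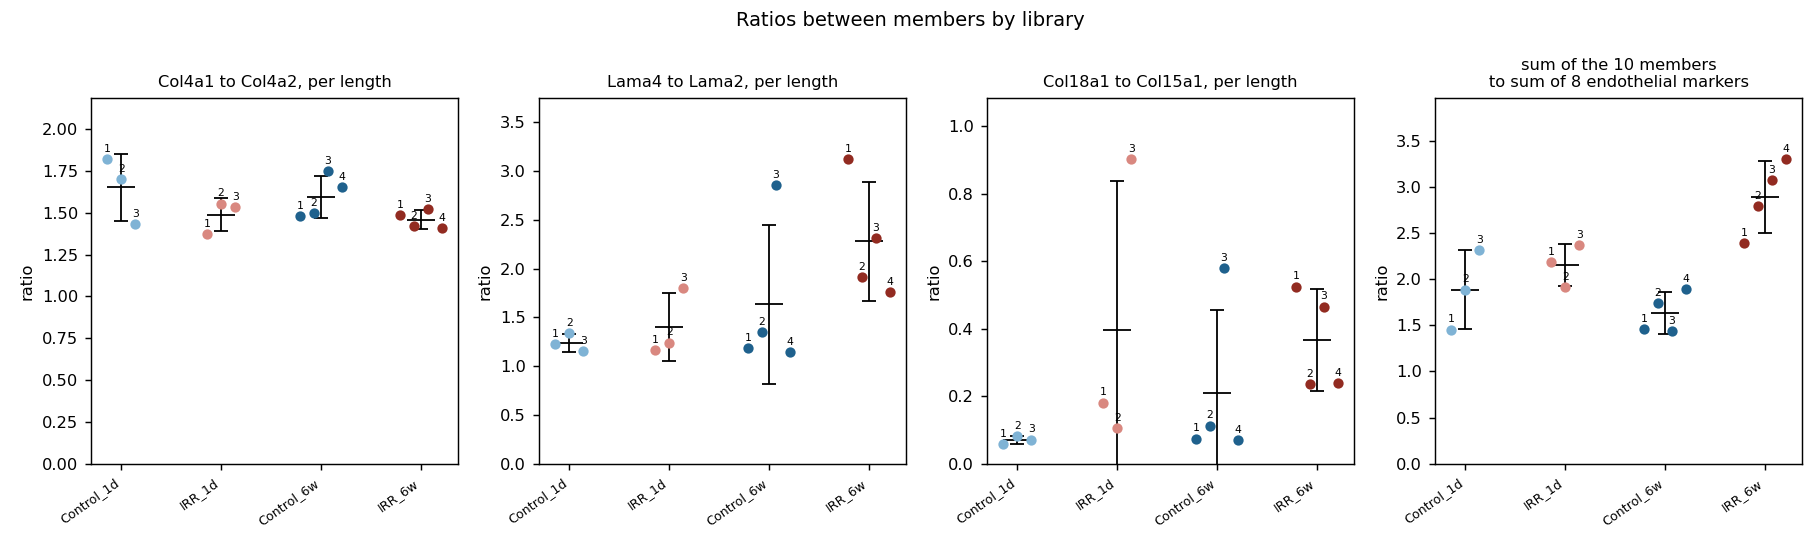
Ratios by library (points with replicate numbers), with mean ± SD of each group (n = 3 or 4, whiskers cut at 0). Col4a1 to Col4a2 stays between 1.37 and 1.82 in all 14 libraries, while the 10 genes over endothelial markers lie from 1.44 to 1.89 in Control_6w and from 2.39 to 3.30 in IRR_6w.

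One day after irradiation the 10 genes did not share a direction. Only Col18a1 and Lamc1 had positive log2 fold changes for IRR_1d against Control_1d (with library totals in place of TMM also Hspg2, at 0.0777), and the median was -0.17 against 0.06 over all tested genes. None was called by edgeR, against 0.0249% of all tested genes, and all 10 had an adjusted p of 1. At an unadjusted p, 1 of the 10, Col18a1, was higher, against 1.94% of all tested genes, and 0 were lower, against 0.96%.

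Col18a1 was at 6.52, 12.7 and 18.2 CPM in Control_1d and at 27.6, 13.1 and 137 CPM in IRR_1d. The highest value was that of replicate 3, which carried brown fat and atrial transcripts, and the groups overlapped. The log2 fold change of 2.25 ± 0.676 (unadjusted p = 0.00478, edgeR) was 0.71 ± 0.433 (unadjusted p = 0.125) without the 3 libraries. Leaving out IRR_1d replicate 3 alone gave 0.715.

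Both collagen IV chains leaned the other way at 1 day. Col4a1 was at 476, 719 and 903 CPM in Control_1d and at 373, 384 and 436 CPM in IRR_1d, so that every irradiated heart was below every control heart, as for 4.14% of all tested genes. The log2 fold change was -0.82 ± 0.454 (unadjusted p = 0.0936, adjusted p = 1, edgeR). Col4a2 was at 232, 375 and 559 CPM in Control_1d and at 241, 219 and 252 CPM in IRR_1d, where 2 of the 3 irradiated hearts overlapped the lowest control, with a log2 fold change of -0.71 ± 0.482 (unadjusted p = 0.162, edgeR). With the 3 libraries left out, Col4a1 had -0.89 ± 0.278 (unadjusted p = 0.00773, adjusted p = 1, edgeR) and Col4a2 had -0.76 ± 0.316 (unadjusted p = 0.0337, adjusted p = 1). These 2 of the 10 were then lower at an unadjusted p, against 1.24% of all genes tested there, and 0 of the 10 were called, against 0.0188%. Without Control_1d replicate 3, the highest control, the values were -0.559 for Col4a1 and -0.324 for Col4a2. The spread between the 3 irradiated hearts was small, with SDs of 33.9 CPM for Col4a1 and 16.9 CPM for Col4a2, against 214 and 164 CPM in Control_1d.

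The other 7 genes had log2 fold changes from -0.26 (Col15a1) to 0.13 (Lamc1) at 1 day, each smaller than its SE, and from -0.31 (Col15a1) to 0.15 (Lamc1) without the 3 libraries. Endothelial markers had a median log2 fold change of -0.32 at 1 day, with 0 of 8 at an unadjusted p, and their sum ran from 1465 to 1738 CPM in Control_1d and from 1050 to 1256 CPM in IRR_1d. These sums did not overlap, and their part in the values of Col4a1 was not tested. Divided by the endothelial sum, Col4a1 was 0.444 ± 0.108 in Control_1d (SD, n = 3) and 0.346 ± 0.0607 in IRR_1d (SD, n = 3).

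Between the control groups, no gene of the set was called in Control_6w against Control_1d by edgeR, where 0% of all tested genes were called, and 0 of the 10 reached an unadjusted p under 0.05, against 3.54% of all tested genes that were higher and 1.75% that were lower. DESeq2 also called 0 of the 10, against 0.162% of all genes. The log2 fold changes lay between -0.59 (Lama2) and 0.60 (Col18a1), with a median of -0.29 against 0.12 over all tested genes. That median was -0.01 without the 3 libraries. In Control_6w the spread was wide, with coefficients of variation of 56.3% for Lama2 and 49.5% for Lamb1, and replicate 3 was the lowest Control_6w library for 9 of the 10 genes and the highest for Col18a1.

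Between the irradiated groups, all 10 genes had a positive log2 fold change for IRR_6w against IRR_1d, with a median of 0.65 against -0.02 over all tested genes. None was called by edgeR, against 0.0374% of all tested genes, while 4 of the 10, Col4a1, Col4a2, Lama4 and Lamb1, were higher at an unadjusted p, against 4.2%. For the same 4 genes every IRR_6w value was above every IRR_1d value, as for 5.47% of all tested genes. DESeq2 called Col4a1, 1 of the 10, against 0.873% of all genes. This comparison uses the same IRR_6w libraries as that with Control_6w, so that the 2 are not independent. Macrophage markers moved here too. Their sum ran from 650.1 to 799 CPM in IRR_1d and from 1123 to 1478 CPM in IRR_6w, with no overlap, 4 of 8 were higher at an unadjusted p, the median log2 fold change was 0.85, and no marker was at 0. Endothelial markers summed to 1050 to 1256 CPM in IRR_1d (median 1182) and to 1108 to 1752 CPM in IRR_6w (median 1724). The 1108 CPM belonged to IRR_6w replicate 1, and without the 3 libraries with brown fat transcripts these sums did not overlap. Fibroblast sums ran from 3388 to 5386 CPM in IRR_1d and from 2823 to 3746 CPM in IRR_6w. Of the 8 fibroblast markers, 2 were lower at an unadjusted p, and the median log2 fold change was -0.42. Without the 3 libraries the fibroblast sums ran from 3388 to 3972 CPM in IRR_1d and from 2823 to 2863 CPM in IRR_6w, with no overlap. Mural sums ran from 1666 to 2520 CPM in IRR_1d and from 936 to 2324 CPM in IRR_6w. Of the 8 mural markers, 2 were lower at an unadjusted p, with a median of -0.49. The part of these markers in the values of the 10 genes was not tested.

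With all 14 libraries the collagen IV pair had the largest values. The log2 fold change of Col4a1 was 1.50 ± 0.441 (unadjusted p = 0.00423, adjusted p = 0.53, edgeR), and that of Col4a2 was 1.52 ± 0.469 (unadjusted p = 0.00566, adjusted p = 0.557, edgeR). Once the 3 libraries were left out, edgeR called both, 2 of the 10 genes, with log2 fold changes of 1.81 ± 0.289 (adjusted p = 0.0161) for Col4a1 and 1.81 ± 0.330 (adjusted p = 0.0315) for Col4a2, where 0.659% of all genes tested were called. In the libraries of that fit, all endothelial sums of IRR_6w lay above those of IRR_1d, and all fibroblast sums lay below. The part of these cell types in these calls was not tested. At an unadjusted p, 8 of the 10 were then higher, against 6.72%. Lama4 had 0.78 ± 0.321 (unadjusted p = 0.0286) and Lamb1 0.96 ± 0.404 (unadjusted p = 0.0325) with all libraries, and 0.94 ± 0.254 and 0.96 ± 0.323 without the 3. Col18a1 had 0.27 ± 0.604 with all libraries and 1.85 ± 0.463 (adjusted p = 0.119) without the 3, which was then above the collagen IV pair. Leaving out only IRR_1d replicate 3, its highest library, gave 1.81, against 1.56 for Col4a1 and 1.57 for Col4a2.

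The change in the irradiation effect from 1 day to 6 weeks was tested as the difference between both irradiation comparisons. It was positive for 9 of the 10 genes, with a median of 0.84 against -0.15 over all tested genes, and negative for Col18a1 (-0.33 ± 0.855), which became 1.55 ± 0.595 without the 3 libraries. None of the 10 was called, and 0% of all tested genes were. At an unadjusted p, 3 of the 10 were higher, against 2.13% of all tested genes. These were Col4a1 with 1.91 ± 0.602 (unadjusted p = 0.00672, edgeR), Col4a2 with 1.90 ± 0.641 (unadjusted p = 0.00998) and Lama4 with 1.28 ± 0.447 (unadjusted p = 0.0122), all with an adjusted p of 0.99. Without the 3 libraries they had 1.95 ± 0.371 (adjusted p = 0.076), 1.91 ± 0.424 (adjusted p = 0.152) and 1.22 ± 0.335 (adjusted p = 0.297).

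The proportion of the collagen IV chains was compared within libraries. The ratio of Col4a1 to Col4a2 per length was 1.65 ± 0.199 in Control_1d (SD, n = 3), 1.49 ± 0.0989 in IRR_1d (n = 3), 1.59 ± 0.127 in Control_6w (n = 4) and 1.46 ± 0.0542 in IRR_6w (n = 4). It lay between 1.37 and 1.82 in all 14 libraries, while the level of Col4a1 ranged from 205 to 1448 CPM. The mean was lower in the irradiated group at both times, the ranges of all 4 groups overlapped, and the ratio was not tested.

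Outside the set, the 5 tested genes whose log levels followed the mean of the 10 most closely over the 14 libraries were Soga1 (Pearson's r = 0.968), Dchs1 (r = 0.965), Arhgef5 (r = 0.961), Nid2 (r = 0.958) and Nes (r = 0.953). Nid2 is the second nidogen and Nes encodes the intermediate filament nestin. These values are descriptions without a test, and the libraries share depth and tissue makeup. They include Control_6w replicate 3, which stood far below the other libraries in the mean of the 10.

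A further 64 genes of basement membranes, sorted by role, were examined in the same fit, and 63 of them passed the filter. Where groups of a gene below did not overlap, the share of all tested genes was 4.08% for higher at 6 weeks. It was 4.14% for lower at 1 day. At 6 weeks, 53 of the 63 had positive log2 fold changes, 15 were higher at an unadjusted p, against the 5.43% given above, 0 were lower and 0 were called. At 1 day, 42 were positive, 5 were higher and 3 were lower at an unadjusted p, against 1.94% and 0.96% of all tested genes, and 0 were called. With the 3 libraries left out, 43 were positive at 6 weeks, 11 were higher at an unadjusted p, against 6.56% of all genes tested there, and edgeR called 4, namely Nid2, Pxdn, Sparc and Mmp2, against 1.13%. At 1 day 2 were then higher, against 0.979%, 3 were lower, against 1.24%, and 0 were called. For IRR_6w against IRR_1d, 33 of the 63 were positive with all libraries, 7 were higher at an unadjusted p, against 4.2%, and 0 were called, against 0.0374%. Leaving out the 3 libraries gave 36 positive and 12 higher, against 6.72%, and edgeR called 4, against 0.659%. These were Nid2 (1.81 ± 0.283, adjusted p = 0.0153), Pxdn (1.22 ± 0.211, adjusted p = 0.023), Sparc (1.76 ± 0.290, adjusted p = 0.0178) and Adamts1, given with the genes of turnover.

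Among 12 other chains tested, 11 were positive at 6 weeks and 3 were higher at an unadjusted p, or 9 and 2 without the 3 libraries. Nid2 was at 35.5, 29.5, 6.21 and 32.3 CPM in Control_6w and at 47.2, 80.9, 125 and 119 CPM in IRR_6w, and every irradiated heart was above every control. Its log2 fold change was 1.85 ± 0.441 (unadjusted p = 0.000862, adjusted p = 0.113, edgeR), and 1.74 ± 0.244 without the 3 libraries (adjusted p = 0.00588). Agrn, the proteoglycan agrin, had 0.83 ± 0.297 (unadjusted p = 0.0143) and 0.72 ± 0.279 without the 3 libraries (unadjusted p = 0.0232). Col4a4, a chain of the collagen IV network known from the kidney glomerulus, had 0.71 ± 0.295 (unadjusted p = 0.0293), which was 0.43 ± 0.271 without them (unadjusted p = 0.136). At 1 day 0 of the 12 reached an unadjusted p, and the largest of those with the smallest p, Col4a6 with 3.06 ± 1.72, rested on 37.5 CPM in IRR_1d replicate 3 and was 0.55 ± 1.71 without the 3 libraries. At that time Col4a3 had 0.79 ± 0.471 and Agrn 0.54 ± 0.341, or 0.62 ± 0.458 and 0.38 ± 0.308 without them.

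Of 12 genes for folding, modification and crosslinking of the chains, 9 were positive at 6 weeks and 3 were higher at an unadjusted p, the same numbers as without the 3 libraries. Pxdn encodes peroxidasin, which forms the sulfilimine crosslink between collagen IV trimers. It was at 104, 108, 48.8 and 96.3 CPM in Control_6w and at 174, 188, 229 and 224 CPM in IRR_6w, with no overlap. Its log2 fold change was 1.19 ± 0.246 at 6 weeks (unadjusted p = 0.00024, adjusted p = 0.061, edgeR), and 1.06 ± 0.183 without the 3 libraries (adjusted p = 0.0179). At 1 day Pxdn lay lower, at 148, 150 and 176 CPM in Control_1d and 88.7, 94.3 and 99.6 CPM in IRR_1d, also with no overlap, and its log2 fold change was -0.75 ± 0.282 (unadjusted p = 0.0188, adjusted p = 1, edgeR), or -0.79 ± 0.208 without the 3 libraries (adjusted p = 0.781). The collagen galactosyltransferase Colgalt1 and Crtap, a partner of prolyl 3-hydroxylase, each had a log2 fold change of 0.75 at 6 weeks (unadjusted p = 0.0119 and 0.0141, edgeR), and 0.74 and 0.64 without the 3 libraries. At 1 day the lysyl hydroxylase Plod3 had 0.87 ± 0.399 (unadjusted p = 0.0462), or 0.64 ± 0.356 without them (unadjusted p = 0.0988), and the prolyl hydroxylase subunit P4hb had 0.36 ± 0.300, or 0.15 ± 0.233.

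Among 14 associated proteins, 11 were positive at 6 weeks and 2 were higher at an unadjusted p, or 8 and 1 without the 3 libraries. Sparc, a collagen-binding matricellular protein, was at 586, 540, 297 and 490 CPM in Control_6w and at 694, 1337, 2130 and 1631 CPM in IRR_6w, with no overlap, and its log2 fold change was 1.60 ± 0.368 (unadjusted p = 0.000638, adjusted p = 0.1, edgeR), or 1.66 ± 0.249 without the 3 libraries (adjusted p = 0.0089). Hmcn1 (hemicentin) had 0.83 ± 0.357 (unadjusted p = 0.0359), with its highest level in IRR_6w replicate 1, and 0.20 ± 0.231 without the 3 libraries (unadjusted p = 0.396). Fras1 had 1.94 ± 1.35, with 20.1 CPM in the same library against at most 3.87 CPM in the other 6-week libraries, and 1.00 ± 1.56 without the 3. At 1 day, Npnt (nephronectin) had the largest value, 3.96 ± 1.41 (unadjusted p = 0.0137), which rested on 91.7 CPM in IRR_1d replicate 3 against at most 3.09 CPM in the other 1-day libraries and was 0.50 ± 0.699 without the 3 libraries. Fbln1 (fibulin-1) had 1.15 ± 0.473 (unadjusted p = 0.0285), and Ntn4 (netrin-4) had 0.71 ± 0.325 (unadjusted p = 0.0459). These were 0.68 ± 0.265 (unadjusted p = 0.0249) and 0.56 ± 0.288 (unadjusted p = 0.0761) without the 3 libraries.

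Of 17 receptors, 14 were positive at 6 weeks and 5 were higher at an unadjusted p, or 11 and 3 without the 3 libraries. Itga2, the α2 subunit of a collagen-binding integrin, was low, at 1.15 to 1.75 CPM in Control_6w and 4.94 to 14.8 CPM in IRR_6w, with no overlap, and its log2 fold change was 2.39 ± 0.534 (unadjusted p = 0.000493, adjusted p = 0.0878, edgeR), or 2.56 ± 0.636 without the 3 libraries (adjusted p = 0.0907). The common β subunit Itgb1 had 0.75 ± 0.306 (unadjusted p = 0.0282) and the collagen receptor Ddr1 had 0.77 ± 0.324 (unadjusted p = 0.0313). Without the 3 libraries Itgb1 had 0.75 ± 0.228 (unadjusted p = 0.00627), while Ddr1 had 0.42 ± 0.320 (unadjusted p = 0.218). At 1 day the laminin receptor subunit Itga6 had a log2 fold change of -0.89 ± 0.332 (unadjusted p = 0.0174, adjusted p = 1, edgeR), with 280, 178 and 203 CPM in Control_1d and 112, 135 and 110.1 CPM in IRR_1d. It had -0.84 ± 0.275 without the 3 libraries (unadjusted p = 0.01). At 1 day Ddr1 had 0.79 ± 0.375 and Itga2 1.15 ± 0.596, or 0.51 ± 0.354 and 0.76 ± 0.669 without them.

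Among 8 genes of turnover, all 8 were positive at 6 weeks and 2 were higher at an unadjusted p, namely Mmp2 and Mmp14. In the fit without the 3 libraries 6 were positive and 2, Mmp2 and Adamts1, were higher. Mmp2, the gelatinase that cleaves collagen IV, was at 78.4, 83.3, 32.1 and 103 CPM in Control_6w and at 150, 172, 178 and 273 CPM in IRR_6w. At 1 day it was at 71.4, 64.5 and 108 CPM in Control_1d and at 290, 234 and 394 CPM in IRR_1d. The groups did not overlap at either time, and the share of all tested genes that did so and were higher at 1 day was not computed. The log2 fold changes were 1.91 ± 0.401 at 1 day (unadjusted p = 0.000278, adjusted p = 0.365, edgeR) and 1.38 ± 0.342 at 6 weeks (unadjusted p = 0.00115, adjusted p = 0.118). Without the 3 libraries they were 1.69 ± 0.289 (adjusted p = 0.133) and 1.23 ± 0.265 (adjusted p = 0.0487). Its membrane-bound activator Mmp14 had 0.93 ± 0.429 at 6 weeks (unadjusted p = 0.0469), or 0.77 ± 0.475 without them (unadjusted p = 0.131). The protease Adamts1 had -0.91 ± 0.409 at 1 day (unadjusted p = 0.0426), or -1.26 ± 0.234 (adjusted p = 0.176). For IRR_6w against IRR_1d it had 1.22 ± 0.392 (unadjusted p = 0.00731, adjusted p = 0.592), and 1.72 ± 0.239 without the 3 libraries (adjusted p = 0.00867), where edgeR called it. The heparanase gene Hpse had 2.15 ± 1.04 at 6 weeks and the inhibitor Timp3 0.70 ± 0.387 at 1 day, both short of an unadjusted p under 0.05, and these were 1.81 ± 1.26 and 0.24 ± 0.240 without the 3 libraries.

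**Figure D5:**
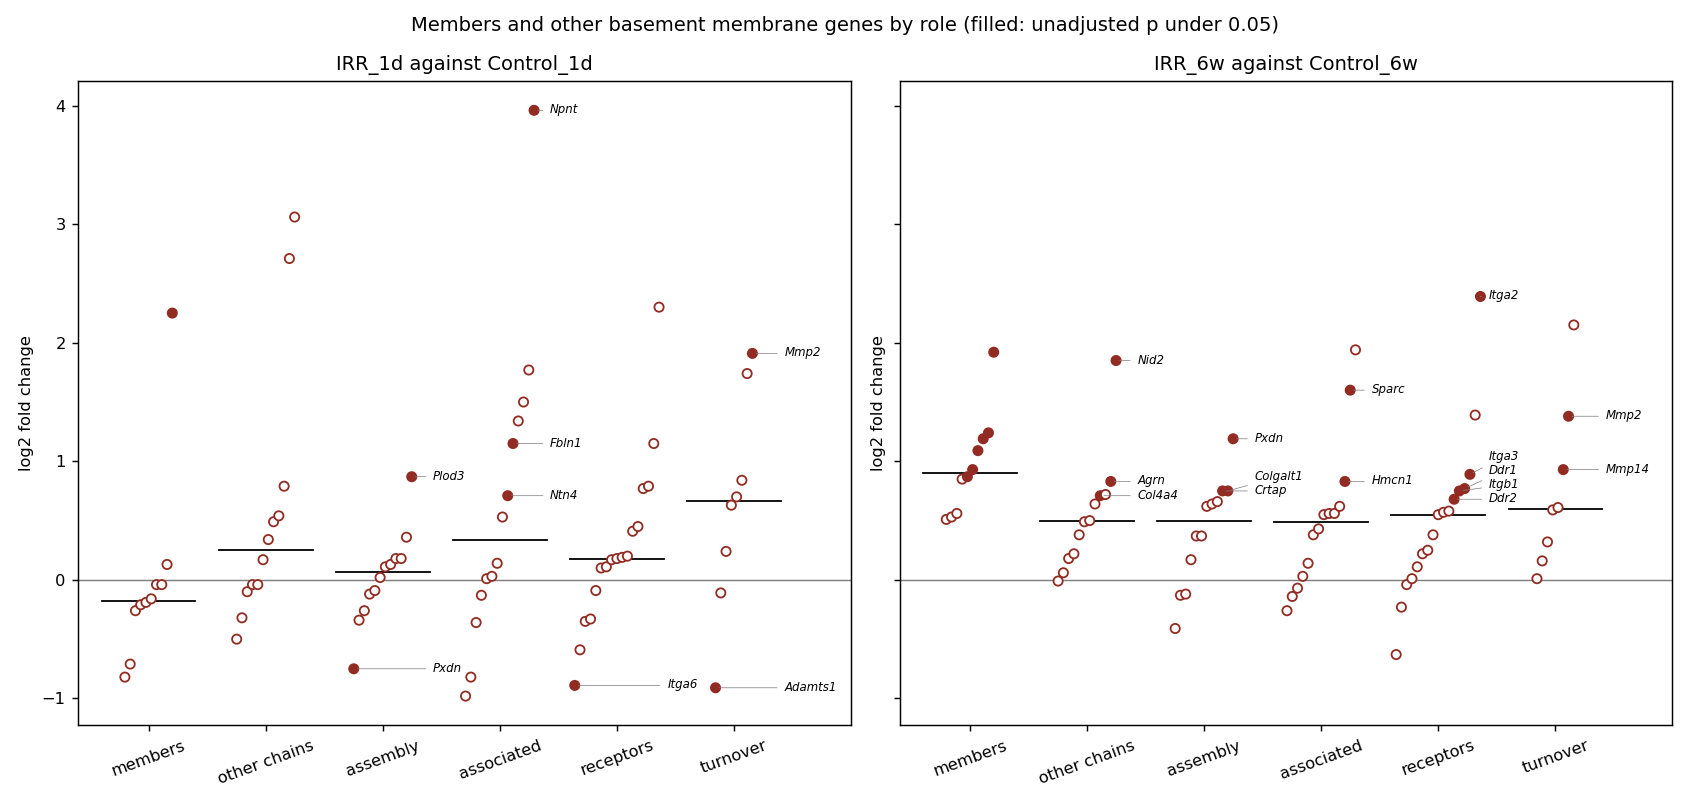
Log2 fold changes from edgeR of the 10 genes (members) and of 63 other basement membrane genes by role, at 1 day (left) and 6 weeks (right). Filled points have an unadjusted p under 0.05, horizontal lines are medians, and the median of the 10 genes is -0.17 at 1 day and 0.90 at 6 weeks.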

How the data were processed

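The authors checked reads with FastQC 0.11.8, trimmed them with Trim Galore 0.6.1, aligned them to mm10 with STAR 2.5.0a, used HTSeq for counting, and deposited 1 table of whole-number counts for 54532 genes in 14 libraries, with coordinates and lengths. Strandedness, counting mode and annotation release were not given in the sources used here.

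The 10 genes and the lists were chosen with earlier results of these data known. Counts were tested in 1 edgeR 4.0.16 fit (R 4.3.3) of all 14 libraries with filterByExpr, TMM scaling, a model of the 4 groups and the quasi-likelihood test, with p-values adjusted over the 16034 genes tested. Calls required a fold change above 2 or below 0.5, the limits used by the study, and an adjusted p under 0.05. The scripts were tested on simulated data.

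The genes named from each role list were up to 3 with the smallest p at 1 day and at 6 weeks, plus any gene called. The alternatives were library totals, no filter, DESeq2 1.42.0, limma-voom (limma 3.58.1), fits of 2 groups, unadjusted p-values, the replicate number as a block, leaving out each library, and leaving out 3 libraries with brown fat transcripts. Labels matched every count column to a mouse. No annotation of single transcripts was counted, so isoforms were not analysed here.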

Additional observations from a re-analysis of the deposited data

Results flagged for a closer look

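In IRR_6w replicate 1, Col4a2 was at 304.7 CPM, while the next library of the group was at 782.4 CPM. The gap was 0.886 of the range of the group, above the 95% critical value of Dixon's test for 4 samples. It was 1 of 20 groups of 4 examined for the 10 genes, and chance alone marks about 1 in 20. This library carried 1796 CPM of brown fat markers and 426 CPM of lung epithelium markers, and its endothelial markers summed to 1108 CPM, the lowest of its group. The part of these transcripts in the value was not tested. Without this library the log2 fold change of Col4a2 in IRR_6w against Control_6w was 1.43 (adjusted p = 0.159, edgeR).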

How the results depend on the processing

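In IRR_6w against Control_6w all 10 genes kept positive log2 fold changes under every alternative. Of the 10, edgeR at an unadjusted p called 1 at 1 day, 4 at 6 weeks, 2 between the irradiated groups and 3 for the change in effect, against 2.23, 5.43, 3.85 and 2.86% of all genes. DESeq2 on 2 groups at an unadjusted p called 1, 4 and 2 in the first 3, against 2.91, 5.69 and 5.83%. DESeq2 on all libraries called 2 at 6 weeks and 1 between the irradiated groups (2.05 and 0.873%), and library totals called 1 at 6 weeks (Lama4, 1.54, adjusted p = 0.0479), against 0.518%. Without the 3 libraries with brown fat transcripts, 2 were called at 6 weeks and 2 between the irradiated groups (1.13 and 0.659%). Between the irradiated groups, 4 were higher at an unadjusted p, against 7 with library totals, 8 without the 3 libraries and 2 with the replicate block, beside 4.2, 8.2, 6.72 and 3.28% of all genes. At 1 day that number was 0 without the 3 libraries (0.979%).

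Leaving out 1 library at a time, edgeR called 0 of the 10 in every comparison, and at most 0.627% of all genes. At an unadjusted p, 4 to 7 were higher at 6 weeks and 0 to 1 at 1 day (0 without IRR_1d replicate 3). Between the irradiated groups 2 to 5 were higher (2 without replicate 1 or 2 of IRR_1d or replicate 3 or 4 of IRR_6w). Between the controls, 0 to 1 reached that p in either direction. The 1, without Control_6w replicate 4, was lower in Control_6w. Over the same fits, 4.09 to 7.22%, 0.626 to 4.33% and 2.02 to 5.84% of all genes were higher in the first 3, and 2.5 to 8.66% reached that p in either direction between the controls. In IRR_6w against Control_6w, the smaller log2 fold changes depended on single libraries. They ranged from 0.225 to 0.847 (Lama2), 0.248 to 0.736 (Col15a1), 0.244 to 0.638 (Nid1) and 0.539 to 1.05 (Hspg2).

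Some small values changed sign. At 1 day Hspg2 was 0.0777 with library totals, 0.101 with limma-voom, 0.00712 with the replicate block and 0.0275 without the 3 libraries. Between the controls, Lamb1 was 0.00341 with library totals and 0.159 without the 3 libraries, which gave 0.0768 for Col15a1, 0.153 for Nid1 and 0.145 for Hspg2. Between the irradiated groups Lama2 was -0.108 with the replicate block. Single libraries gave ranges of -0.501 to 0.155 (Col15a1), -0.148 to 0.0715 (Lama4), -0.442 to 0.0846 (Lamb1) and -0.356 to 0.507 (Hspg2) at 1 day, of -0.45 to 0.195 (Col15a1), -0.398 to 0.16 (Lamb1), -0.242 to 0.152 (Nid1) and -0.495 to 0.357 (Hspg2) between the controls, and of -0.222 to 1.81 (Col18a1) and -0.133 to 0.381 (Lama2) between the irradiated groups. The cause was not tested.

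With library totals, the median over all genes moved up by 0.0758 (IRR_1d against Control_1d), 0.233 (IRR_6w against Control_6w), 0.161 (controls over time) and 0.318 (irradiated groups over time) on the log2 scale. Same-numbered mice of both arms correlated at -0.364 to 0.371 over 7 pairs, 1 of them above 0.1, and 2 of 7 controls matched their own number best, so the numbers were not taken as pairs.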
